A study of Mus musculus with 8 samples.

Results

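Skeletal muscle genes were followed in the molar tooth germs of mouse embryos after injection of agents against Sonic hedgehog (Shh) signalling. The 40 genes were chosen by name as a set of sarcomere and myogenic genes, with earlier results of these data known. They comprised 13 of the thick filament, 11 of the thin filament and its regulation, 4 of the Z-disc, titin and intermediate filament, 2 of energy and oxygen supply, 5 of excitation and calcium handling, and 5 myogenic transcription factors and progenitor genes. The array's annotation gave 65 probe sets naming exactly 1 of these genes, of 45101 probe sets in all, and the 40 genes stood among 18193 genes named this way. Each gene was read from its brightest such probe set, and a probe set is a group of short oligonucleotides on the array that report 1 transcript. Of the 40 genes, 28 had a mean level above the filter on low values and entered the tests with 13008 genes in all, and 12 did not. The highest signal of these 12 genes on any array was 168 and the lowest 1.9.

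Pregnant ICR mice, an outbred stock, were given 1 intraperitoneal injection at embryonic day 14, and mandibular molar tooth germs of the embryos were taken 24 hours later. The injection held 5E1, an IgG1 monoclonal antibody against Shh (10 mg/kg), 40-1a, a monoclonal of the same IgG1 class raised to the unrelated protein β-galactosidase (10 mg/kg), cyclopamine, an antagonist of the Hedgehog receptor component Smo (10 mg/kg), or PBS (1 ml). Each of the 4 groups had 2 Affymetrix arrays that the labels call biological replicates, with no statement of how many litters or embryos each one pooled, so the tests measure the spread between these samples. All 8 samples were of the same stock, stage and tissue, and no group carried a transgene. Signals are given below for replicate 1 and then replicate 2 of each group, in MAS5 units, for which the trimmed mean of every array was 500. Levels and differences on the log2 scale are of log2(signal + 9).

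Skeletal muscle contracts through the sarcomere, in which thick filaments of myosin slide along thin filaments of actin under the control of troponin and tropomyosin. Myogenic transcription factors of the MyoD family start this programme in embryonic muscle cells, and embryonic and perinatal forms of the contractile proteins precede the adult ones. A tooth germ consists of dental epithelium and neural crest mesenchyme and forms no skeletal muscle of its own, while the tongue and the jaw muscles develop close by in the mandible.

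Transcripts of differentiating skeletal muscle were present on all 8 arrays, and their level differed widely between the replicates of 40-1a and of cyclopamine. The median over the 28 tested genes of the log2 level, relative to each gene's own mean over the arrays, was 0.09 and 0.16 after 5E1, -1.36 and 1.10 after 40-1a, -0.31 and 1.36 after cyclopamine, and 0.04 and -0.76 after PBS. Replicate 2 of 40-1a and replicate 2 of cyclopamine held the highest levels, replicate 1 of 40-1a and replicate 2 of PBS the lowest, and the 2 arrays of 5E1 lay close together. In RNA from whole germs, fewer muscle cells and less muscle RNA per cell cannot be told apart. The median span from the lowest to the highest array was 2.72 on the log2 scale for the 28 genes and 0.70 for all genes tested, and the median SD within groups was 1.21 against 0.25. The span exceeded 2 for 19 of the 28 genes (67.9%), against 574 of 13008 genes (4.41%).

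The order of the arrays was shared by most of the muscle genes. In 23 of 28 (82.1%), the 2 highest arrays were replicate 2 of 40-1a and replicate 2 of cyclopamine, a pattern found in 748 of 13008 genes tested (5.75%). The exceptions were Mybpc3, Tpm2, Actn3, Chrna1 and Myod1. Myod1 missed narrowly, since replicate 1 of PBS (262) lay just above replicate 2 of 40-1a (255). In 17 of 28 (60.7%), replicate 1 of 40-1a and replicate 2 of PBS were the 2 lowest arrays, against 345 of 13008 (2.65%). Replicate 2 exceeded replicate 1 in 17 of 28 genes after 5E1 (median log2 difference 0.12), in 25 of 28 after 40-1a (2.54, or 5.83-fold), in 27 of 28 after cyclopamine (1.52, or 2.87-fold) and in 3 of 28 after PBS (-0.78). These counts describe single arrays and carry no test, since the 28 genes of 1 array share its sample. The highest and lowest arrays were also picked from the levels of these same genes, which builds in an excess over all genes.

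**Figure D1:**
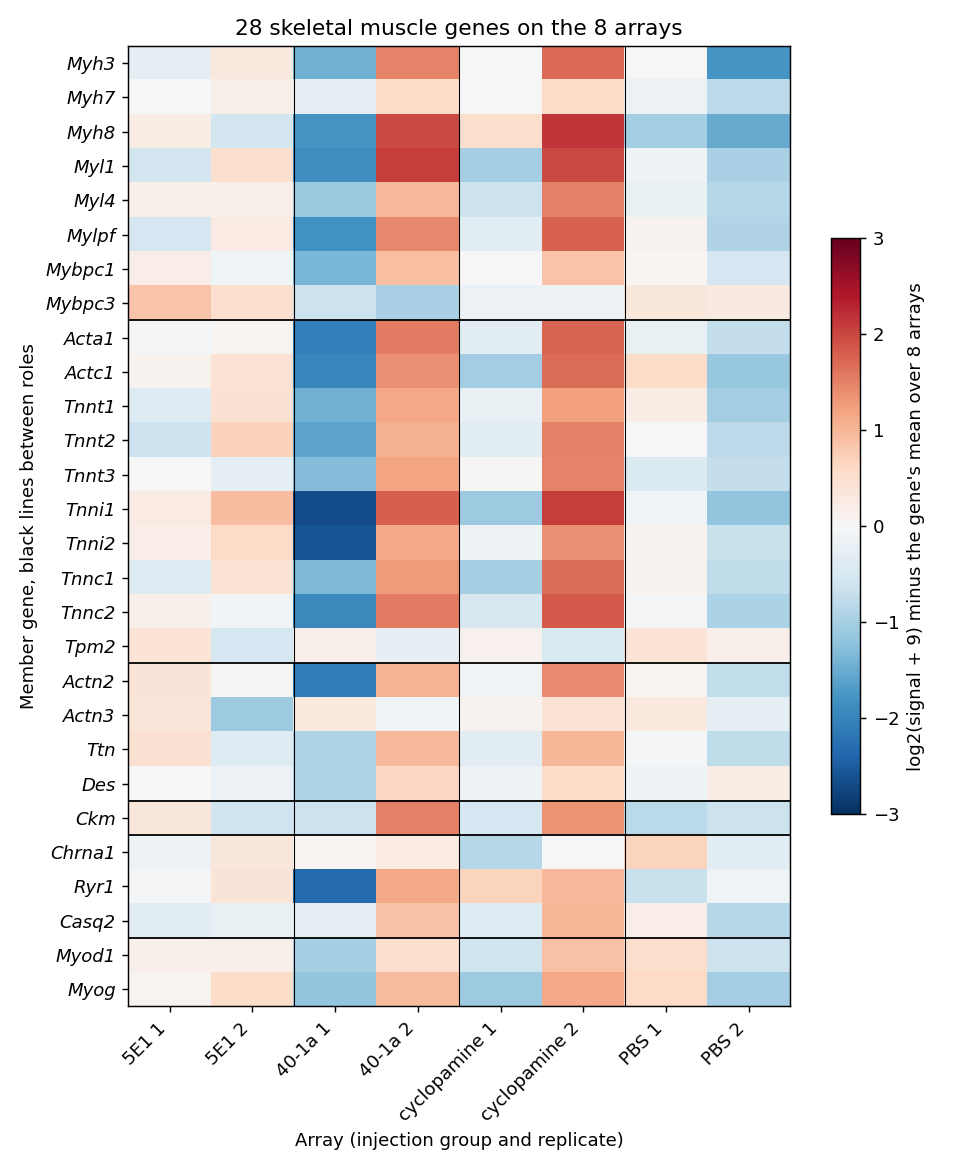
Heat map of the 28 tested muscle genes (rows, by role from thick filament at the top to myogenic factors at the bottom) on the 8 arrays (columns), coloured by log2(signal + 9) minus the gene's mean. Replicate 2 of 40-1a and of cyclopamine hold the 2 highest values in 23 of 28 genes and the column of replicate 1 of 40-1a is mostly blue. The exceptions to the 2 highest arrays are Mybpc3, Tpm2, Actn3, Chrna1 and Myod1. Of these, Myod1 is still highest on replicate 2 of cyclopamine and lowest on replicate 1 of 40-1a.

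With the muscle genes left out, the arrays were clustered on all other genes tested and cut into 3 clusters. The number 3 was a setting. The clusters cut across the injections and are used as blocks below. Cluster 1 held replicate 1 of 5E1, of 40-1a and of PBS, cluster 2 held replicate 2 of 5E1, of 40-1a and of cyclopamine, and cluster 3 held replicate 1 of cyclopamine and replicate 2 of PBS. The muscle level followed these clusters in part. The 3 arrays of cluster 2 had the 3 highest muscle medians (0.16 after 5E1, 1.10 after 40-1a and 1.36 after cyclopamine) and both arrays of cluster 3 were negative (-0.31 after cyclopamine and -0.76 after PBS), while cluster 1 held the lowest array (-1.36 after 40-1a) beside 0.09 after 5E1 and 0.04 after PBS. As a check of the injections, Ptch1, the Hedgehog receptor and a target of the pathway, had signals of 2122 and 1552 after 5E1, 11322 and 7180 after 40-1a, 9683 and 5793 after cyclopamine, and 9611 and 8474 after PBS. Gli1, a Hedgehog-induced transcription factor, had 240 and 348 after 5E1, 1196 and 1586 after 40-1a, 2157 and 1193 after cyclopamine, and 1070 and 2143 after PBS. Both 5E1 arrays lay below all 6 other arrays for these 2 genes, and the cyclopamine arrays overlapped the PBS arrays for both.

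The thick filament genes included the myosins of developing muscle. Myh3, the embryonic myosin heavy chain, had signals of 359 and 544 after 5E1, 158 and 1266 after 40-1a, 447 and 1470 after cyclopamine, and 446 and 125 after PBS. Myh8, the perinatal heavy chain, had 155 and 86.9 after 5E1, 31.9 and 547 after 40-1a, 192 and 617 after cyclopamine, and 59.9 and 40.0 after PBS. For both genes the 40-1a replicates spanned most of the range of all 8 arrays, while for Myh8 both cyclopamine arrays lay above both PBS arrays, whose signals were below the filter level of 60.3. Myh7, the slow heavy chain, which the heart also uses, had 125 and 143 after 5E1, 101 and 189 after 40-1a, 125 and 197 after cyclopamine, and 111 and 69.6 after PBS, a narrower span of 1.39 on the log2 scale. Probe sets that name both Myh7 and the cardiac gene Myh6 were not used for either. The brighter of them also had its 2 highest signals on replicate 2 of 40-1a (102.6) and of cyclopamine (119.6). The other stayed between 1.8 and 5.2, too low to order the arrays.

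The myosin light chains followed the heavy chains. Mylpf, the regulatory light chain of fast fibres, had signals of 358 and 606 after 5E1, 140 and 1410 after 40-1a, 402 and 1781 after cyclopamine, and 553 and 269 after PBS. Myl4, the alkali light chain of embryonic muscle and of the atrium, had 496 and 498 after 5E1, 202 and 889 after 40-1a, 286 and 1291 after cyclopamine, and 380 and 241 after PBS. Myl1, the alkali light chain of fast fibres, had 211 and 440 after 5E1, 79.4 and 1356 after 40-1a, 152 and 1265 after cyclopamine, and 282 and 154 after PBS. In each of the 3 genes the 5E1 replicates lay inside the range of the 40-1a replicates. A dimmer Myl4 probe set was instead highest on replicate 1 of PBS (47.2), with 44.0 on replicate 2 of 40-1a. Mybpc1, the slow skeletal form of myosin-binding protein C, which stiffens and regulates the thick filament, had 115 and 89.4 after 5E1, 32.3 and 191 after 40-1a, 97.5 and 184 after cyclopamine, and 104 and 67.0 after PBS.

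Mybpc3, the form of myosin-binding protein C known from heart muscle, was the thick filament gene that did not follow the others. Its signal was 208 and 158 after 5E1, 68.0 and 51.8 after 40-1a, 97.4 and 98 after cyclopamine, and 142 and 137 after PBS. Here the replicates of every group lay close together, with a within-group SD of 0.18 on the log2 scale, and the groups did not overlap in the order 5E1, PBS, cyclopamine and 40-1a from high to low. Signals of 5 other thick filament genes were below the filter on average. Myh1 and Myh2, adult fast heavy chains, reached 73.3 and 51.0 at most, and Myl2 and Myl3, light chains of slow and cardiac muscle, reached 88.7 and 58.6. Mybpc2, the fast form of myosin-binding protein C, reached 23.7. Adult fast myosins were thus not followed here, and their signals cannot be set against those of Myh3 and Myh8, since different probe sets are not on a common scale.

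**Figure D2:**
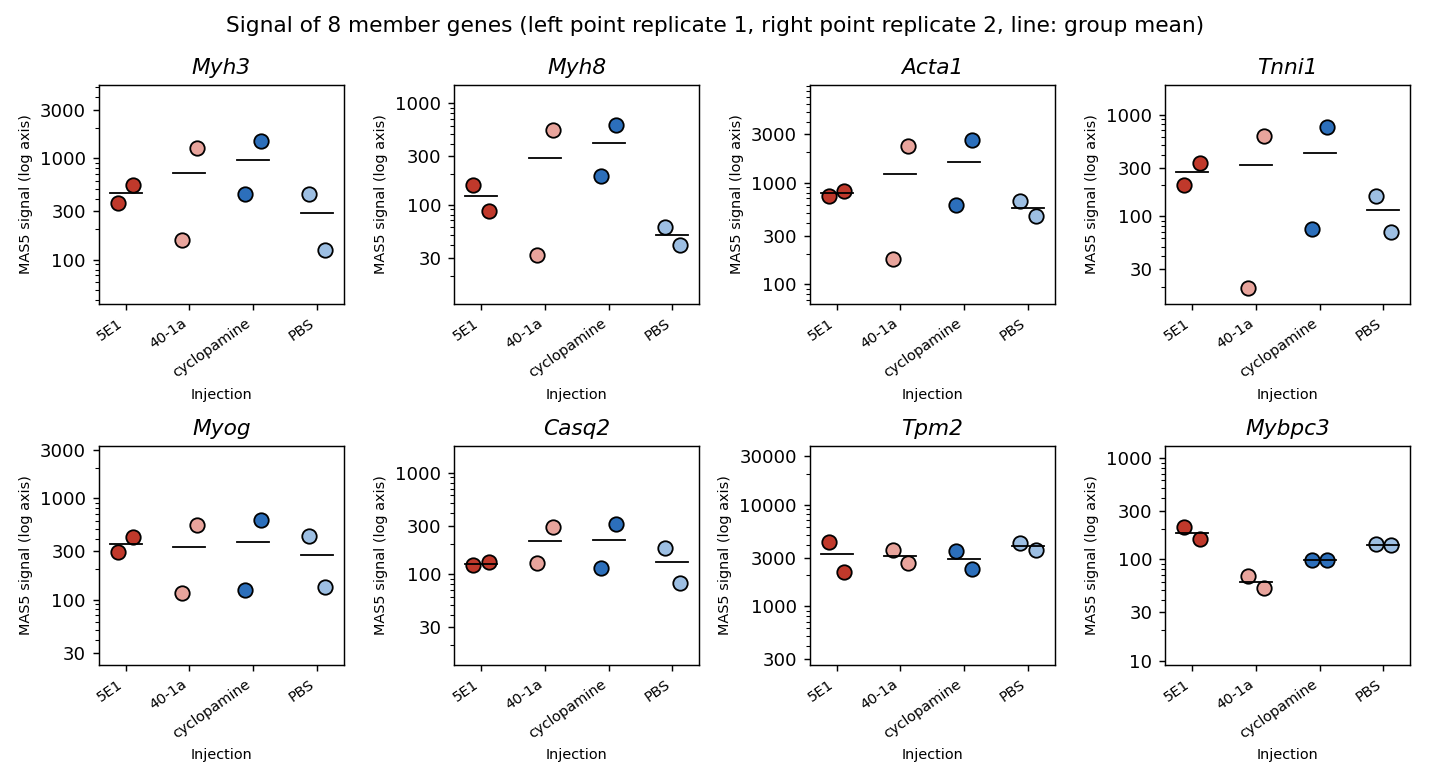
MAS5 signal (log axis, each panel spanning the same fold range) of 8 muscle genes by injection group, with a point for each replicate and a line at the group mean. Myh3, Myh8, Acta1, Tnni1, Myog and Casq2 had wide gaps between the replicates of 40-1a and of cyclopamine, Tpm2 varied little, and Mybpc3 had close replicates, with 5E1 at 208 and 158 and 40-1a at 68.0 and 51.8.

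The thin filament genes included both the widest and the narrowest spans. Acta1, skeletal α-actin, had signals of 746 and 823 after 5E1, 175 and 2283 after 40-1a, 607 and 2620 after cyclopamine, and 663 and 468 after PBS. Actc1, the cardiac α-actin that embryonic skeletal muscle also makes, had 1924 and 2430 after 5E1, 452 and 4624 after 40-1a, 858 and 5695 after cyclopamine, and 2642 and 808 after PBS. Both actins were highest on replicate 2 of cyclopamine and lowest on replicate 1 of 40-1a. Tnni1, the inhibitory troponin of slow fibres, had 204 and 334 after 5E1, 19.6 and 611 after 40-1a, 74.9 and 752 after cyclopamine, and 158 and 70.2 after PBS, and its span of 4.73 was the widest of the 28 genes. Tnni2, the inhibitory troponin of fast fibres, had 149 and 200 after 5E1, 13.7 and 292 after 40-1a, 116 and 347 after cyclopamine, and 138 and 77.4 after PBS. A dimmer Tnni2 probe set had the same 2 highest arrays but was lowest on replicate 1 of PBS (28.4), and another stayed between 2.75 and 12.1.

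In the probe sets used, the other troponins kept the same order of arrays at their extremes. Tnnt1, Tnnt2 and Tnnt3, which tie troponin to tropomyosin in slow, cardiac and fast muscle, had 117, 67.7 and 40.0 on replicate 1 of 40-1a and 785, 637 and 327 on replicate 2 of cyclopamine. Tnnc1 and Tnnc2, the calcium-binding troponins of slow and fast muscle, had 153 and 59.3 on replicate 1 of 40-1a and 1296 and 934 on replicate 2 of cyclopamine. Slow and fast forms were thus low and high on the same arrays. Of the dimmer Tnnt2 probe sets, the brighter kept these extremes (83.2 and 517), and the other was highest on replicate 1 of PBS (55.1) and lowest on replicate 2 of PBS (3.34). Neb, the giant protein along the thin filament, fell just outside the filter (mean log2 level 6.07), with 83.3 and 46.3 after 5E1, 31.1 and 148 after 40-1a, 31.0 and 168 after cyclopamine, and 39.2 and 28 after PBS. Cav3 (6.10) lay just outside as well and Ryr1 (6.26) just inside.

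Tpm2, β-tropomyosin, which winds along actin and is also made in smooth muscle and other cells, ran differently from its partners. Its signal was 4251 and 2183 after 5E1, 3529 and 2661 after 40-1a, 3461 and 2291 after cyclopamine, and 4209 and 3532 after PBS, a span of 0.96, the narrowest of the 28 genes. Its 3 lowest arrays were those of cluster 2, including the 2 on which the actins were highest. A dimmer Tpm2 probe set was instead highest on replicate 2 of 40-1a (229) and of cyclopamine (250), with 148 to 188 on the other 6 arrays, so the probe sets of this gene disagree.

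Because the actins, troponins and Myog moved together while Tpm2 did not, the sequences around their start sites are shown for 4 genes. They are RefSeq windows of build GRCm38.p6 running from 250 bases before to 50 bases after the annotated start, and 33 of the 40 genes matched, with 39 windows. Lower case marks the window and capitals mark E-boxes (CANNTG, the core that MyoD family factors and other basic helix-loop-helix factors bind, found on both strands), CArG boxes (the site of serum response factor) and MEF2 sites. CArG boxes and MEF2 sites were searched by strict consensus, so a site that departs from it at a base is not marked, and no MEF2 match was found in these 4 windows. Acta1 and Actc1 are shown as the skeletal and cardiac actins, Myog as the differentiation regulator, and Tpm2 as the gene with another order of arrays.
Acta1 (chr8:123894726-123895025, minus strand): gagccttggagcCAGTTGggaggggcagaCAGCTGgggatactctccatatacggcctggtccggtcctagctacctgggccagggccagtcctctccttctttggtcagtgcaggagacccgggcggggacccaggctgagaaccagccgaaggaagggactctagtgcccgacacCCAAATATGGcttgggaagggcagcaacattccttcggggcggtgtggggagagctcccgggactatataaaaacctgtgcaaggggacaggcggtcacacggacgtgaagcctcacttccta
Actc1 (chr2:114052826-114053125, minus strand): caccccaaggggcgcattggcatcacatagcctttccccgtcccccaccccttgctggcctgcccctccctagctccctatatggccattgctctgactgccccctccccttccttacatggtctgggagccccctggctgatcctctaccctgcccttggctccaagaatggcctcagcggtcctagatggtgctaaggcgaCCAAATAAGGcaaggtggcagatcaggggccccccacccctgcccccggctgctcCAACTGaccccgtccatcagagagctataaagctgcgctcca
Myog (chr1:134289754-134290053, plus strand): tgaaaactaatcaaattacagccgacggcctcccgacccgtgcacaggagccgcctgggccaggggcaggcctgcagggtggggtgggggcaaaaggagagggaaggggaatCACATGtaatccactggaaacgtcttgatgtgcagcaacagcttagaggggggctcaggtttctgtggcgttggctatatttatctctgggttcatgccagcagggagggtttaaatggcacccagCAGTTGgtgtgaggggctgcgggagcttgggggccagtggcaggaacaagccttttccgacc
Tpm2 (chr4:43523505-43523804, minus strand): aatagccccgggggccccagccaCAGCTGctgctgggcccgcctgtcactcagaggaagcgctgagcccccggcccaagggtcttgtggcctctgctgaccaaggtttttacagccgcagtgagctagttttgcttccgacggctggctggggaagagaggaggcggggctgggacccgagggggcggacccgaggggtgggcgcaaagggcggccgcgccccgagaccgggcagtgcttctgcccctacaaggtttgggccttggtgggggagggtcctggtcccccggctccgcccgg
In these windows the CArG box began 73 bases before the annotated start in Acta1 and 47 before it in Actc1. The E-boxes of Myog began 138 and 12 bases before the annotated start. The letters TATAAA, on the forward strand, began 7 bases before the annotated start in Acta1 and at base 34 past it in Actc1. All these distances are from the annotated start, and whether it is the start in use was not examined. Both Acta1 and Tpm2 held the E-box CAGCTG, beginning 221 and 227 bases before the start. Of the 39 windows of muscle genes, 33 held any E-box (84.6%, against 72.3% of all 32851 windows), 17 held CAGCTG, which is counted among the E-boxes too (43.6% against 16.3%), 3 held a CArG box (7.69% against 1.63%) and 5 a MEF2 site (12.8% against 3.19%), both strands searched. Windows of 1 gene overlap in sequence, and a match describes letters only.

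Genes of the Z-disc and the elastic filament system followed the actins in part. Actn2, the α-actinin that anchors actin in all striated muscle, had 198 and 153 after 5E1, 28.2 and 319 after 40-1a, 138 and 412 after cyclopamine, and 157 and 85.4 after PBS. Ttn, titin, the molecular spring of the sarcomere, had 384 and 210 after 5E1, 143 and 553 after 40-1a, 222 and 563 after cyclopamine, and 269 and 159 after PBS. Des, desmin, the intermediate filament around the Z-discs, had 202 and 178 after 5E1, 103 and 320 after 40-1a, 183 and 304 after cyclopamine, and 181 and 237 after PBS. In the probe sets used, all 3 were highest on replicate 2 of 40-1a and of cyclopamine. A dimmer Des probe set was instead highest on replicate 1 of PBS (83.7). For Ttn a dimmer probe set kept this order (223 and 220). The other dimmer Ttn probe sets did not, among them a probe set highest on replicate 1 of 5E1 (108). Actn3, the α-actinin of fast fibres, did not share this order, with 230 and 78.2 after 5E1, 220 and 167 after 40-1a, 190 and 240 after cyclopamine, and 218 and 143 after PBS.

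Among genes of excitation, calcium and energy, Casq2 and Ryr1 of the calcium store had the same 2 highest arrays as most sarcomere genes. Casq1, a calsequestrin outside the set, did not, with 77.8 on replicate 2 of 40-1a and 117 on replicate 2 of cyclopamine. Casq2, a calsequestrin, which buffers stored calcium, had 122 and 131 after 5E1, 128 and 293 after 40-1a, 116 and 316 after cyclopamine, and 180 and 81.7 after PBS. Ryr1, the calcium release channel of the same store, had 65.8 and 91.2 after 5E1, 6.27 and 160 after 40-1a, 113 and 142 after cyclopamine, and 39.1 and 61.4 after PBS. A dimmer Ryr1 probe set was also highest on replicate 2 of 40-1a (84.9) but lowest on replicate 1 of cyclopamine (10.3). Ckm, muscle creatine kinase, which regenerates ATP, had 196 and 97.0 after 5E1, 94.3 and 447 after 40-1a, 105 and 398 after cyclopamine, and 83.3 and 93.9 after PBS. A dimmer Ckm probe set stayed between 72.5 and 99.7 on all arrays. Chrna1, the α-subunit of the muscle acetylcholine receptor, had 82.7 and 121 after 5E1, 100 and 113 after 40-1a, 47.6 and 94.9 after cyclopamine, and 154 and 72.5 after PBS, and was highest on a PBS array. Below the filter were Cav3, the caveolin of muscle membranes, with at most 127 (40-1a replicate 2), Chrnd, the δ-subunit of the receptor, with at most 32.7 (5E1 replicate 1), and Mb, the oxygen store myoglobin, with at most 81.8 (PBS replicate 2) in the probe set used and 91.0 (40-1a replicate 1) in its other one.

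Myogenic transcription factors were measured as well as their targets. Myod1, a factor that commits cells to muscle, had 199 and 200 after 5E1, 85.5 and 255 after 40-1a, 114 and 334 after cyclopamine, and 262 and 112 after PBS. Myog, myogenin, which drives the differentiation of committed cells, had 293 and 410 after 5E1, 116 and 541 after 40-1a, 125 and 616 after cyclopamine, and 422 and 133 after PBS. In both genes replicate 1 of 40-1a, replicate 1 of cyclopamine and replicate 2 of PBS formed a low set and the other 5 arrays a higher one. A dimmer Myod1 probe set ran otherwise, from 5.54 on replicate 2 of 5E1 to 46.5 on replicate 1 of 5E1. The early factor Myf5 was below the filter, with 36.7 and 36.9 after 5E1, 5.27 and 50.7 after 40-1a, 10.9 and 53.5 after cyclopamine, and 91.3 and 14.1 after PBS, and its 3 lowest arrays were the same as those of Myod1 and Myog. Myf6, a factor of later fibres, reached 62.1. Pax7, a mark of muscle progenitors, ranged from 19.1 to 40.9, and its dimmer probe set ranged from 4.78 to 90.7, highest on replicate 2 of cyclopamine. Both genes were below the filter on average and were not tested.

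Pairs of related genes varied less against each other than each did alone. The log2 ratio of Myh8 over Myh3 spanned 1.56 across the arrays, against 3.94 for the level of Myh8 and 3.47 for that of Myh3. The ratio of Acta1 over Actc1 spanned 1.49, of Tnnt3 over Tnnt1 1.13, of Tnnc2 over Tnnc1 1.14 and of Tnni2 over Tnni1 1.67. Myl1 over Myl4 spanned 1.86, the widest of these contractile pairs, with -0.76 and 1.10 after 40-1a relative to its mean over arrays. The replicates of a group still disagreed in these ratios, since relative to its mean over arrays Myh8 over Myh3 was 0.52 and -0.84 after 5E1, -0.34 and 0.49 after 40-1a, 0.51 and 0.45 after cyclopamine, and -1.03 and 0.24 after PBS. The ratio of Myog over Myod1 spanned 0.94, and that of Tpm2 over Acta1 spanned 4.46, more than the level of Acta1 itself (3.84).

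**Figure D3:**
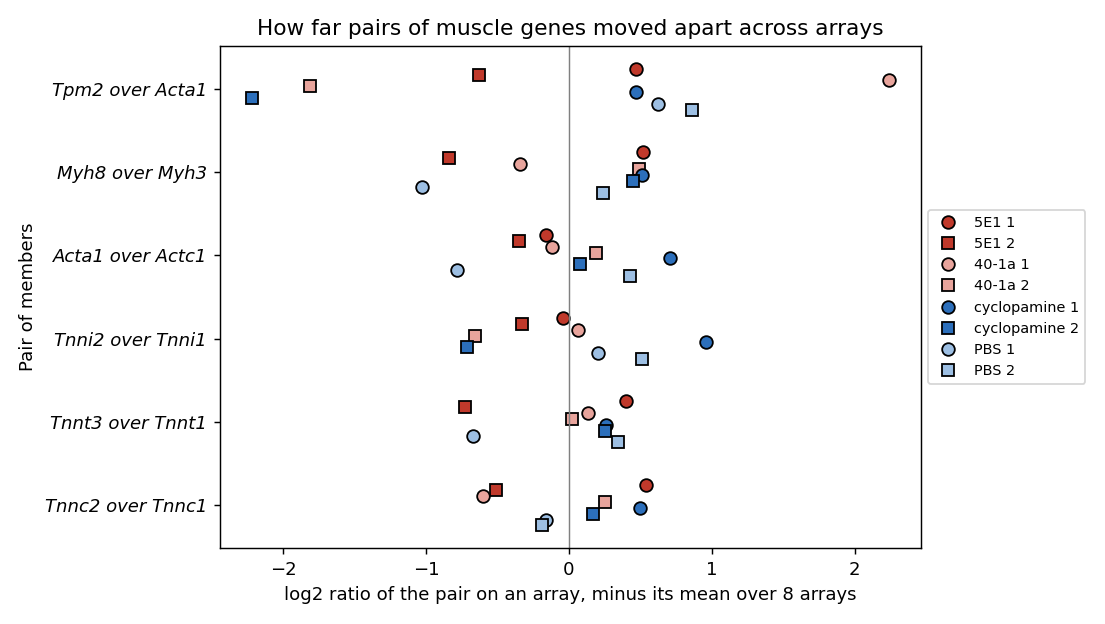
Log2 ratio of 6 pairs of muscle genes on each of the 8 arrays, relative to the mean of the pair over arrays (horizontal axis), with colours for the injection and circles and squares for replicates 1 and 2. The 5 pairs of related contractile genes shown spread over 1.13 to 1.67, while Tpm2 over Acta1 spread over 4.46. Myl1 over Myl4, a related pair that is not shown, spread over 1.86.

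Genes of muscle outside the set behaved alike only in part. Of 66 further muscle genes listed, 61 were measured and 38 passed the filter, and 15 of these (39.5%) had replicate 2 of 40-1a and of cyclopamine as their 2 highest arrays. By group they were 6 of 14 sarcomere and Z-disc genes, 3 of 8 of excitation and calcium, 3 of 4 of metabolism and 3 of 12 of progenitors, fusion and myogenic control. Chosen after their values were seen, Myom2 and Atp2a1 serve as examples of these 15, while most of the 38 did not share the order. Myom2, an M-band protein that links thick filaments, had 88.9 and 95.1 after 5E1, 4.58 and 263 after 40-1a, 53.5 and 321 after cyclopamine, and 78.0 and 79.6 after PBS. Atp2a1, the pump that refills the calcium store of fast fibres, had 178 and 112 after 5E1, 84.3 and 348 after 40-1a, 101 and 267 after cyclopamine, and 154 and 117 after PBS. Tpm3 and Tpm1, tropomyosins of many cell types and the brightest of the sarcomere list, varied only between 7947 and 9791 and between 7827 and 10402.

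Markers of some other cell types moved with the muscle genes across the arrays. Of 7 tested genes of the suprabasal oral epithelium, the stratified layers above the basal cells, 6 had the same 2 highest arrays. Their summed signal, led by the keratins Krt6a, Krt13 and Krt4, was 31823 and 51585 after 5E1, 19837 and 73194 after 40-1a, 32201 and 70260 after cyclopamine, and 34852 and 31628 after PBS. The oral epithelium list was therefore highest on the arrays where muscle was highest and lowest on replicate 1 of 40-1a, where muscle was lowest, and its part in the results was not tested. Dental mesenchyme (9 genes tested, led by Barx1, Pdgfra and Msx1) had summed signals of 23213 and 9213 after 5E1, 23875 and 16046 after 40-1a, 27991 and 14141 after cyclopamine, and 23229 and 29349 after PBS. The tendon list had 2501 and 846 after 5E1, 2530 and 994 after 40-1a, 1555 and 1075 after cyclopamine, and 2833 and 1678 after PBS. These 2 lists were lowest on the arrays of cluster 2 and 0 of 9 and 0 of 4 of their genes shared the top arrays of the muscle genes.

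Markers of heart and smooth muscle were examined in the same way. All 6 heart genes (Myh6, Nppa, Nppb, Tnni3, Myl7 and Ryr2) were below the filter, with a summed signal of 229 and 202 after 5E1, 308 and 200 after 40-1a, 209 and 230 after cyclopamine, and 280 and 214 after PBS, so their order of arrays could not be judged at this signal. Of 7 smooth muscle genes, Myh11, Cnn1 and Lmod1 were below the filter and 0 of the 4 tested, led by Acta2, Tagln and Smtn, had the same 2 highest arrays. The list medians were 0.17 and -0.07 after 5E1, -0.17 and 0.06 after 40-1a, 0.02 and 0.14 after cyclopamine, and 0.09 and -0.16 after PBS. The dental epithelium list ran from -0.32 to 0.39 over the arrays (1 of 9 genes with the same 2 highest arrays), the nerve and Schwann cell list from -0.41 to 0.52 (1 of 5) and the endothelial list from -0.56 to 0.43 (0 of 6).

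**Figure D4:**
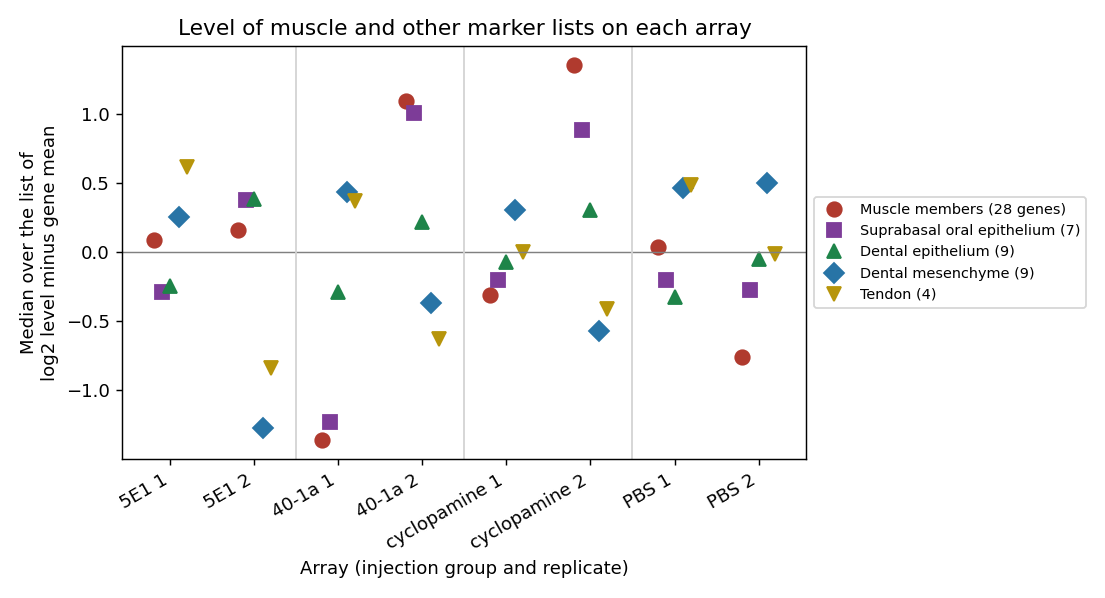
Median level of the 28 muscle genes and of 4 marker lists on each array, as log2 level minus the gene's mean over arrays, with the number of genes in the key. Muscle and suprabasal oral epithelium were both highest on replicate 2 of 40-1a (1.10 and 1.01) and of cyclopamine (1.36 and 0.89), and lowest on replicate 1 of 40-1a (-1.36 and -1.23).

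The comparison of 5E1 with 40-1a asked what neutralising Shh changed relative to an unrelated antibody. Limma called 0 of 28 muscle genes at an adjusted p of 0.05, as it called 0% of all genes tested. At an unadjusted p under 0.05 there was 1 muscle gene, Mybpc3, against 1.22% of all genes. The median log2 difference of the 28 genes was 0.11, with 18 higher and 10 lower, against -0.01 for all genes tested. Without overlap between the groups, 1 muscle gene was higher (all genes 8.66%) and 0 were lower (all genes 10.8%).

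Mybpc3 averaged 183 ± 35.5 after 5E1 and 59.9 ± 11.5 after 40-1a (SD, n = 2 each). Its log2 difference was 1.48 (SE 0.30, 95% interval 0.78 to 2.17), a 2.78-fold higher level after 5E1, with an adjusted p of 1 by limma. Both 5E1 arrays were above both 40-1a arrays. The pairs within cluster 1 (208 against 68.0) and within cluster 2 (158 against 51.8) therefore had to share this direction and are no separate check. The 51.8 of 40-1a replicate 2 lay below the filter level of 60.3. The myosin heavy chains Myh3 and Myh8 and the actin Acta1 had small estimates and wide intervals. Myh3 differed by -0.03 (SE 1.00, -2.35 to 2.28), Myh8 by -0.27 (SE 1.10, -2.81 to 2.28) and Acta1 by 0.29 (SE 1.09, -2.23 to 2.80). Mylpf (0.05, SE 1.05), Myl4 (0.22, SE 0.80), Tnnt3 (-0.07, SE 0.78), Ckm (-0.56, SE 0.80), Myod1 (0.40, SE 0.65), Myog (0.44, SE 0.91) and Tnni2 (1.14, SE 1.08) also had adjusted p-values of 1 by limma. The intervals of Myh3, Myh8, Acta1 and Mylpf include changes of more than 2 log2 units in either direction, so the data do not show that 5E1 left muscle RNA as it was.

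The 2 pairs of arrays went opposite ways. Within cluster 1 the muscle genes were higher after 5E1 than after 40-1a in 26 of 28 cases, by a median of 1.29, and within cluster 2 they were lower in 26 of 28, by a median of -0.89. The 40-1a replicates decided both directions, since without 40-1a replicate 1 the median difference was -0.99 and without 40-1a replicate 2 it was 1.43.

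Cyclopamine against PBS asked what the injected Smo antagonist changed. The log2 differences of the pathway targets were -0.27 for Ptch1 (SE 0.30) and 0.08 for Gli1 (SE 0.40). A response of these 2 targets to cyclopamine was thus not detected on these arrays. Limma called 0 of 28 muscle genes, as it called 0% of all genes. The median log2 difference of the 28 genes was 0.91, with 25 higher and 3 lower, against 0.02 for all genes tested. Myh8 alone had an unadjusted p under 0.05 (1.58% of all genes). Without overlap, 6 muscle genes were higher (Ckm, Myh3, Myh7, Myh8, Ryr1 and Tnnt3, against 17.8% of all genes) and 2 were lower (Mybpc3 and Tpm2, against 14.4%). These shares of 21.4% and 7.14% lie near the share of all genes and below it.

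Myh8 averaged 405 ± 300 after cyclopamine and 49.9 ± 14.1 after PBS (SD, n = 2 each). Its log2 difference was 2.61 (SE 1.10, 95% interval 0.06 to 5.16), or 6.11-fold, with an adjusted p of 0.983 by limma. Limma draws each gene's spread toward that of genes of like level. The within-group SD of Myh8 itself was 1.49, so this interval is narrower than its own spread would give. Myh3 averaged 958 ± 723 after cyclopamine and 286 ± 227 after PBS, with a log2 difference of 1.73 (SE 1.00, -0.58 to 4.05). The other named genes also had adjusted p-values of 0.983 by limma, except Myog at 0.986. Their log2 differences were 1.33 for Tnnt3 (SE 0.78), 1.17 for Acta1 (SE 1.09), 1.15 for Ckm (SE 0.80), 1.12 for Mylpf (SE 1.05), 0.99 for Myl4 (SE 0.80) and 0.77 for Myh7 (SE 0.41). Myod1 (0.18, SE 0.65) and Myog (0.23, SE 0.91) had the smallest values, and Mybpc3 was at -0.48 (SE 0.30), with 97.7 ± 0.438 after cyclopamine and 139 ± 4.0 after PBS. The named contractile genes other than Mybpc3 thus had larger point estimates than Myod1 and Myog, without a test of that difference. It did not hold for every sarcomere gene tested, since Tpm2 was lower after cyclopamine and Des lay near Myod1.

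Replicate 2 of cyclopamine carried most of this difference. Without it the median over the 28 genes was 0.07, with Acta1 at 0.12, Mylpf at 0.06, Ckm at 0.23, Tnnt3 at 0.61 and Myh3 at 0.89, and without cyclopamine replicate 1 it was 1.71. Only cluster 3 held both groups, and there cyclopamine replicate 1 exceeded PBS replicate 2 in 21 of 28 genes, by a median of 0.43. With the array cluster as a block the median was 0.21. In the same comparison 7 of 7 suprabasal oral epithelium genes were higher (median 0.42) and 8 of 9 dental mesenchyme genes were lower (median -0.47), and their part in the muscle difference was not tested.

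**Figure D5:**
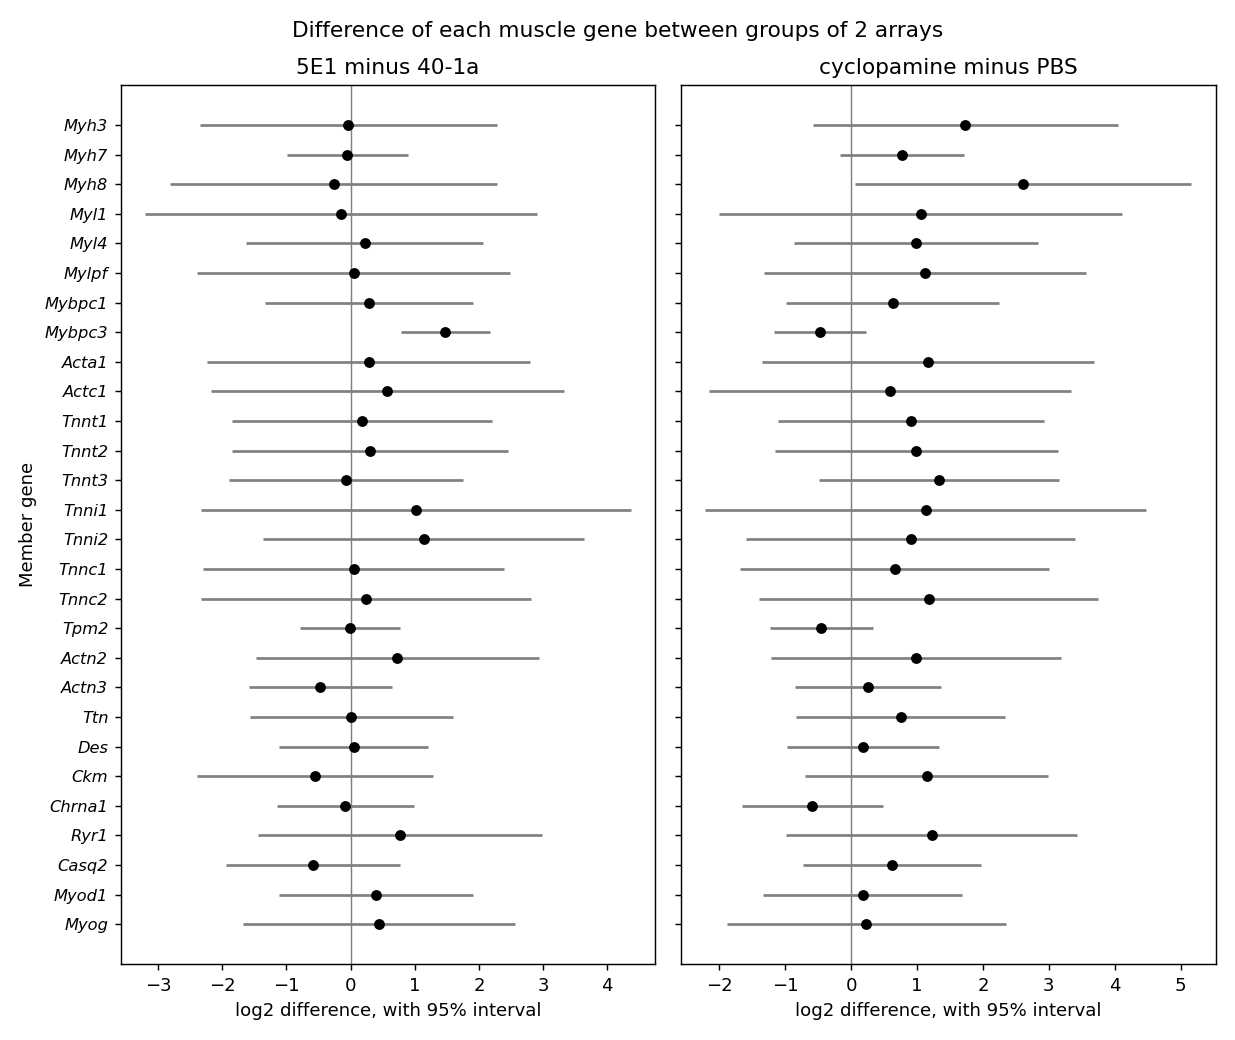
Log2 difference of each of the 28 tested muscle genes (rows) with its 95% interval from limma, for 5E1 minus 40-1a (left) and cyclopamine minus PBS (right). Intervals span 0 in both panels except for Mybpc3 on the left (0.78 to 2.17) and Myh8 on the right (0.06 to 5.16), and neither gene passed the adjusted threshold. They use limma's moderated spread, and that of Myh8 is narrower than its own within-group SD of 1.49 would give.

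Both blocking agents together, 4 arrays, were set against both controls, 4 arrays. The agents are pooled by their intended action, and only the 5E1 arrays lay below all control arrays for both Ptch1 and Gli1. Limma called 0 of 28 muscle genes (0% of all genes), and 1, Mybpc3, had an unadjusted p under 0.05 (1.22% of all genes). The median log2 difference was 0.52, with 25 higher and 3 lower, against 0.01 for all genes. Groups overlapped for every one of the 28 genes, where 0.615% of all genes were higher and 0.753% lower without overlap. The value was 1.17 for Myh8 (SE 0.78), 1.00 for Ryr1 (SE 0.68) and 0.85 for Myh3 (SE 0.71), each with an adjusted p of 1 by limma. Mybpc3 was at 0.50 (SE 0.21), with opposite signs in the 2 comparisons that it combines. Without 40-1a replicate 1 the median was -0.10, and without 40-1a replicate 2 it was 1.16.

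The 2 controls, 40-1a and PBS, gave the background for an antibody injection. They share the 40-1a arrays with the comparison above, so their values are given beside it and are not independent of it. Limma called 0 of 28 muscle genes (0% of all genes), and the median log2 difference was 0.21, with 19 higher and 9 lower, against 0.00 for all genes. Mybpc3 alone had an unadjusted p under 0.05 (0.677% of all genes), with 59.9 ± 11.5 after 40-1a and 139 ± 4.0 after PBS, a log2 difference of -1.12 (SE 0.30) and an adjusted p of 1 by limma. Without overlap 1 gene was higher, Ckm (all genes 9.71%), and 2 were lower, Mybpc3 and Tpm2 (all genes 10.8%). Between the 2 injections that block nothing in the pathway, replicate 1 of 40-1a was below replicate 1 of PBS in 26 of 28 genes (median -1.44), and replicate 2 of 40-1a was above replicate 2 of PBS in 26 of 28 (median 1.85).

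Whether the antibody and cyclopamine differed in their effect, each against its own control, was tested as an interaction. Limma called 0 of 28 muscle genes (0% of all genes), and Mybpc3 alone had an unadjusted p under 0.05 (1.44% of all genes). Its interaction was 1.95 on the log2 scale (SE 0.42, 95% interval 0.97 to 2.93), with an adjusted p of 1 by limma. The median over the 28 genes was -0.71, with 6 higher and 22 lower, against -0.04 for all genes, and Myh8 had -2.88 (SE 1.55). Without 40-1a replicate 2 the median was 0.63 and without cyclopamine replicate 2 it was 0.19, so the sign of this difference rested on those arrays.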

How the data were processed

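RNA of mandibular molar tooth germs was measured on 8 Affymetrix arrays, 2 in each of 4 groups. The deposited values are the authors' probe set signal intensity on a linear scale, made with MAS5 per the submitters' processing notes. Its version, any detection calls and any hybridisation batch were not stated in the labels. Each deposited array had a mean of 500 once 2% of values were trimmed at either end, and the arrays were not rescaled. Precision is limited by the number of arrays, which leaves 4 degrees of freedom for the spread. Limma adds to these by drawing each gene's spread toward that of genes of like level, and its intervals use that moderated spread.

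Probe sets were named through GEO's platform annotation (34945 name 1 gene, and 64 controls were left out), and all 40 genes matched RefSeq. For each gene the probe set with the highest mean was used, as log2(signal + 9), the added 9 being the 10th percentile over all values. Genes with a mean above the 40th percentile of probe sets (log2 6.12, signal 60.3) were tested, which left out 5185. Limma 3.58.1 in R 4.3.3 fitted 4 group means to all 8 arrays (lmFit, contrasts.fit, eBayes with trend), with Benjamini-Hochberg adjustment over 13008 genes and a threshold of 0.05. Adjusted p-values below are limma's, two-sided. A fold change on this scale understates changes of dim genes. The code was tested on simulated data.

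The muscle genes and the marker lists were chosen with earlier results of these data known. Every muscle gene may be given by its signals. Statistics are given for Myh3, Myh8, Acta1, Mylpf, Myl4, Tnnt3, Ckm, Myod1 and Myog. Pax7 was also on this list but fell below the filter. In each comparison of a blocking agent they are given too for the 2 others with the smallest unadjusted p. At most the 3 brightest genes of a marker list are named, with the heart list given whole. Exceptions are the smooth muscle genes below the filter, and Myom2, Atp2a1 and Casq1, picked after their values were seen. Alternatives were other pseudocounts, filters, probe set rules and variance models, quantile normalization, only the compared groups, the replicate number or array cluster as a block, and leaving out each array.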

Additional observations from a re-analysis of the deposited data

Results flagged for a closer look

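For Mybpc3, the effects of the 2 blocking agents against their own controls lay on opposite sides of 0. Both 5E1 arrays were above both 40-1a arrays, and both cyclopamine arrays were below both PBS arrays. This pattern is the rule by which the gene was flagged, so it is no separate evidence. Of all genes tested, 8.66% were higher without overlap after 5E1 than after 40-1a, and 14.4% were lower without overlap after cyclopamine than after PBS. The share of all genes with both was not counted. The interaction was 1.95 on the log2 scale (SE 0.42), with an unadjusted p of 0.0019 and an adjusted p of 1 over 13008 genes by limma. The control arrays of this gene differed as well, at 68.0 and 51.8 after 40-1a and 142 and 137 after PBS.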

How the results depend on the processing

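Limma called 0 muscle genes in all 5 comparisons under every alternative that was run, and no smallest adjusted p of a muscle gene was below 0.531. The counts over all genes moved with the blocks. With the replicate block 1 gene was called for 5E1 minus 40-1a and 1 for the pooled comparison, and with the array cluster block 3 were called for 5E1 minus 40-1a, 2 for the pooled comparison and 3 for the interaction, none of them among the 28 muscle genes. The labels name no pairing. The differences between replicates correlated at 0.591 between 5E1 and 40-1a, at 0.323 to 0.41 between 4 other pairs of groups and at 0.002 between cyclopamine and PBS, so the replicate numbers were not taken to pair all samples. The array clusters come from the values they are applied to. With quantile normalization Myh3 and Tnnt3 were at 0.068 and 0.095 for 5E1 minus 40-1a, and with the mean of probe sets Myl4 was at -0.073. With the array cluster block Myod1 and Myog were at -0.15 and -0.36 for cyclopamine minus PBS, and the median of 40-1a minus PBS was -0.67.

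Leaving out each array in turn moved the median of the muscle genes between -0.99 and 1.43 for 5E1 minus 40-1a, between -0.97 and 1.49 for 40-1a minus PBS, and between -1.82 and 0.63 for the interaction. For 5E1 minus 40-1a the ranges were -1.50 to 1.43 for Myh3, -2.15 to 1.62 for Myh8, -1.58 to 1.67 for Mylpf, -1.31 to 1.18 for Tnnt3, -1.53 to 2.11 for Acta1, -0.83 to 1.27 for Myl4, -0.34 to 1.14 for Myod1, -0.63 to 1.51 for Myog, -0.73 to 3.00 for Tnni2 and -1.63 to 0.51 for Ckm. For cyclopamine minus PBS they were -0.082 to 2.06 for Myl4, -0.56 to 0.92 for Myod1 and -0.88 to 1.34 for Myog. In the pooled comparison they were -0.18 to 1.64 for Acta1, -0.23 to 1.40 for Mylpf, -0.24 to 0.83 for Ckm, -0.079 to 0.66 for Myod1 and -0.22 to 0.89 for Myog. Mybpc3 stayed between 1.29 and 1.67 for 5E1 minus 40-1a. An arm left with 1 array was assumed to vary like the others. Fits of only the compared groups were not run for the pooled comparison and the interaction, which use all groups. With 2 arrays a group, genes below the filter, such as Pax7 and Myf6, were not tested.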
